A study of Mus musculus with 8 samples.

Results

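10 genes of inflammasome signalling, pyroptosis and necroptosis were examined in the infarcted mouse heart: Nlrp3, Pycard, Casp1, Casp4, Gsdmd, Aim2, Casp8, Ripk1, Ripk3 and Mlkl. They were chosen by name. For each gene, the array features named by one of its RefSeq transcripts were taken, and the brightest one that was well above background on 4 or more arrays stood for the gene. Of the 10 genes, 9 had such a probe, among 15156 gene symbols with a retained probe and 34038 retained probes in all. Aim2 had none. Cardiac RNA came from the ventricles of adult male C57BL\6 mice 24 h after surgery. In 4 MI mice the anterior interventricular artery had been tied off for good, with no reperfusion. In 4 sham-operated mice everything but the ligature had been done. Each mouse had an array of its own, with its RNA labeled with Cy3, so the 4 values of a group are 4 animals. The RNA was that of whole ventricles, in which infarcted and spared muscle are mixed, and in such bulk tissue fewer cells of a type and less RNA per cell cannot be told apart.

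Inflammasomes are platforms on which a sensor such as Nlrp3 or Aim2, through the adaptor Pycard (ASC), brings pro-caspase-1 together. Active caspase-1 matures interleukin-1β and interleukin-18 and cuts gasdermin D, whose released fragment opens pores in the plasma membrane, a lytic death called pyroptosis. Mouse caspase-4, long known as caspase-11, binds bacterial lipopolysaccharide in the cytosol and cuts gasdermin D without such a platform. Necroptosis is the other lytic route: under death receptors, Ripk1 recruits Ripk3, Ripk3 phosphorylates the pseudokinase Mlkl, and Mlkl breaks the membrane. Caspase-8 holds this route in check and can start apoptosis instead. In the ischemic heart, cardiomyocytes die by several routes while neutrophils and monocytes enter the tissue.

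Ripk3, Casp8 and Casp4 were called higher after MI, and the canonical inflammasome genes Nlrp3, Pycard and Casp1 were not called. Ripk3 was 2.83-fold higher, Casp8 2.14-fold and Casp4 1.90-fold, and these 3 of the 9 retained genes passed the test over all probes (limma, adjusted p under 0.05). Over all retained probes, 4.73% were called higher in MI mice and 0.729% lower. By limma 0 of the 9 genes were called lower, as by significance analysis of microarrays, and 0 were lower at an unadjusted p under 0.05. Ripk3 and Casp8 also passed a 2-fold threshold, as 3.86% of all probes did. In 5 genes every MI mouse was above every sham-operated mouse (Casp4, Casp8, Ripk1, Ripk3 and Mlkl), against 7.54% of all probes. With each array scaled to its 75th percentile, 4 of these 5 still did not overlap (11.0% of all probes), and Casp4 did. The median log2 fold change of the 9 genes was 0.79, beside 0.11 over all retained probes.

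The 8 arrays lay on 1 slide and were read in 1 scan, in 2 rows that each held 2 mice of either group. The share of spots well above background ran from 58.6% to 66.4% over the arrays, and the number of arrays limits the precision. Values here are processed signals of the scanner software, shifted on each array so that 7 spike-in probes, of RNA added before labeling, had the same mean on all arrays. They are called normalized signals and fold changes are on their log2 scale. With that shift 1609 probes were called higher and 248 lower. With each array scaled to its 75th percentile instead, the median over all probes was -0.02, and 2963 probes were called higher and 3010 lower. Cardiomyocyte genes (Myh6, Tnnt2 and 5 others) were well above background on all 8 arrays, and 0 of the 7 were called in either direction by limma with the spike-in shift or by significance analysis of microarrays, with 1 lower at an unadjusted p under 0.05. With 75th percentile scaling 1 of them, Pln, was called lower by limma (log2 fold change -0.68).

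3 promoters are shown to set the gene that rose most beside the members whose promoter carried a match to the nuclear factor kappa B consensus. The promoter table (RefSeq, GRCm38.p6) held windows of 300 bases, 250 before the start site and 50 after it, for 9 of the 10 genes, and Gsdmd was not listed in it. The consensus, searched on both strands, was found in 8.46% of all 32851 windows. Among the members it was in the 2 windows of Casp4 and in 1 of the 2 windows of Nlrp3. The 250 bases before the start site are printed from 5′ to 3′ on the strand of the gene, with the matches in capitals. They lie at chr14:55788858-55789107 on the minus strand for Ripk3, and on the plus strand at chr9:5308599-5308848 for Casp4 and chr11:59541319-59541568 for Nlrp3.
Ripk3: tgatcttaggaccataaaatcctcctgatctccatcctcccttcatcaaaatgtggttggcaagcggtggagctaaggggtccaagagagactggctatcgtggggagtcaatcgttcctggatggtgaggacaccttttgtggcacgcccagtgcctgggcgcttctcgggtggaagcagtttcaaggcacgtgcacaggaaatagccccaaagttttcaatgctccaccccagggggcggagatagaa
Casp4: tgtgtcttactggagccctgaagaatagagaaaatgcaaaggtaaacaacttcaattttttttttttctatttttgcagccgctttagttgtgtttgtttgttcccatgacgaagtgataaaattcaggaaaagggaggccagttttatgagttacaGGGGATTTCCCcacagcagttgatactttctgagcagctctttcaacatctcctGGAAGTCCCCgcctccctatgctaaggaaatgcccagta
Nlrp3: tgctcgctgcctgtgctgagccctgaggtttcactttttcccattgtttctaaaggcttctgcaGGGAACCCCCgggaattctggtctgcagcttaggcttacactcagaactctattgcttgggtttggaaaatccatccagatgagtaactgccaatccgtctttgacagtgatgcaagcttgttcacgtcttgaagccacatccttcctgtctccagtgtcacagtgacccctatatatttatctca

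The Casp4 window shown held a pair of overlapping matches that begin 93 and 92 bases before the start site and another match 39 bases before it. In the other Casp4 window, which has its own start site, the matches began 104, 103 and 50 bases before that site. The match of Nlrp3 began 186 bases before the start site, and the Ripk3 window held none. An interferon-stimulated element (GAAANNGAAA, in 3.44% of windows) and STAT elements (TTCNNNGAA, in 8.3% of windows) were found, both strands searched, only in Ripk1 among the 9 genes with a window. The interferon-stimulated element began 5 bases before the start site at chromosome 13 and overlapped the STAT element that began 11 bases before it, and the other STAT element began 108 bases before it. These matches are letters in a window and no measured binding. The 3 promoters were chosen after the matches had been seen.

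The sensors and the adaptor stand first in the pathway. Nlrp3 and Pycard did not pass the test, and Aim2 was not tested. Nlrp3, the sensor that answers potassium efflux and membrane damage, was dim. Its normalized signal was 68.6, 40.1, 53.7 and 55.6 in the 4 sham-operated mice and 66.1, 56.1, 83.8 and 45.0 in the 4 MI mice. The groups overlapped, and 1 MI mouse was above the highest sham-operated mouse. The fold was 1.14, with a 95% interval from 0.785 to 1.66 (limma, adjusted p = 0.787). A second, dimmer Nlrp3 probe gave 38.8, 17.7, 34.4 and 27.8 in sham-operated mice and 39.9, 38.5, 61.3 and 40.0 in MI mice. Here 3 of 4 MI mice were above all sham-operated mice, and the fold was 1.55, which did not pass (limma, adjusted p = 0.239). The 95% interval of the second probe ran from 1.04 to 2.32-fold, and its unadjusted p was 0.0348 (limma). The probes of Nlrp3 thus differed in the size of the change, and neither passed after adjustment over all probes.

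Aim2, the sensor of cytosolic DNA, was well above background on 1 array, that of MI mouse 4. Its processed signal was 9.57, 8.24, 6.77 and 4.64 in sham-operated mice and 8.04, 9.26, 9.39 and 15.1 in MI mice. It entered no test.

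Pycard, which links the sensors to caspase-1, was well above background on all 8 arrays. Its normalized signal was 2601, 3103, 3012 and 2440 in sham-operated mice and 3188, 2226, 2930 and 3247 in MI mice, so the lowest and the highest value were both in MI mice. The fold was 1.03 (95% interval 0.741 to 1.44, limma, adjusted p = 0.953). Casp1 itself was at 420, 389, 394 and 378 in sham-operated mice and 442, 352, 412 and 479 in MI mice. The groups overlapped, the spread in sham-operated mice was the smallest of all members, and the fold was 1.06 (95% interval 0.772 to 1.45, limma, adjusted p = 0.905). The upper ends of these intervals leave room for a rise of up to 1.45-fold. Under 75th percentile scaling both differences had the other sign, -0.09 for Pycard and -0.05 for Casp1 on the log2 scale.

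Casp4 was the caspase of the inflammatory group that rose. Its normalized signal was 1277, 1273, 1315 and 968 in sham-operated mice and 2671, 2058, 2993 and 1640 in MI mice. All MI mice were above all sham-operated mice, and MI mouse 4 lay closest to them. With 75th percentile scaling MI mouse 4 (10.57 on the log2 scale) fell below sham-operated mouse 2 (10.70), and the log2 fold change of 0.79 was still called by limma. The log2 fold change was 0.93 ± 0.25 (SE), 1.90-fold with a 95% interval from 1.32 to 2.73 (limma, adjusted p = 0.0355). A second probe gave 951, 978, 1060 and 762 in sham-operated mice and 2035, 1646, 2155 and 1271 in MI mice, a log2 fold change of 0.90 with the same adjusted p of 0.0355 in limma. This call stood close to the threshold. It was lost when sham-operated mouse 1, 2, 3 or 4, MI mouse 1 or MI mouse 3 was left out, with adjusted p up to 0.143 and log2 fold changes from 0.79 to 0.97, and it was made without MI mouse 2 (0.98) and without MI mouse 4 (1.08).

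Gsdmd, the pore former of pyroptosis, lay between these genes. Its normalized signal was 674, 456, 568 and 501 in sham-operated mice and 794, 576, 759 and 767 in MI mice. In MI mice 1, 3 and 4 it was above all sham-operated mice, and MI mouse 2 lay within their range. Its log2 fold change of 0.40 ± 0.23 (SE) did not pass (limma, adjusted p = 0.411, exact permutation p = 0.0571).

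**Figure D1:**
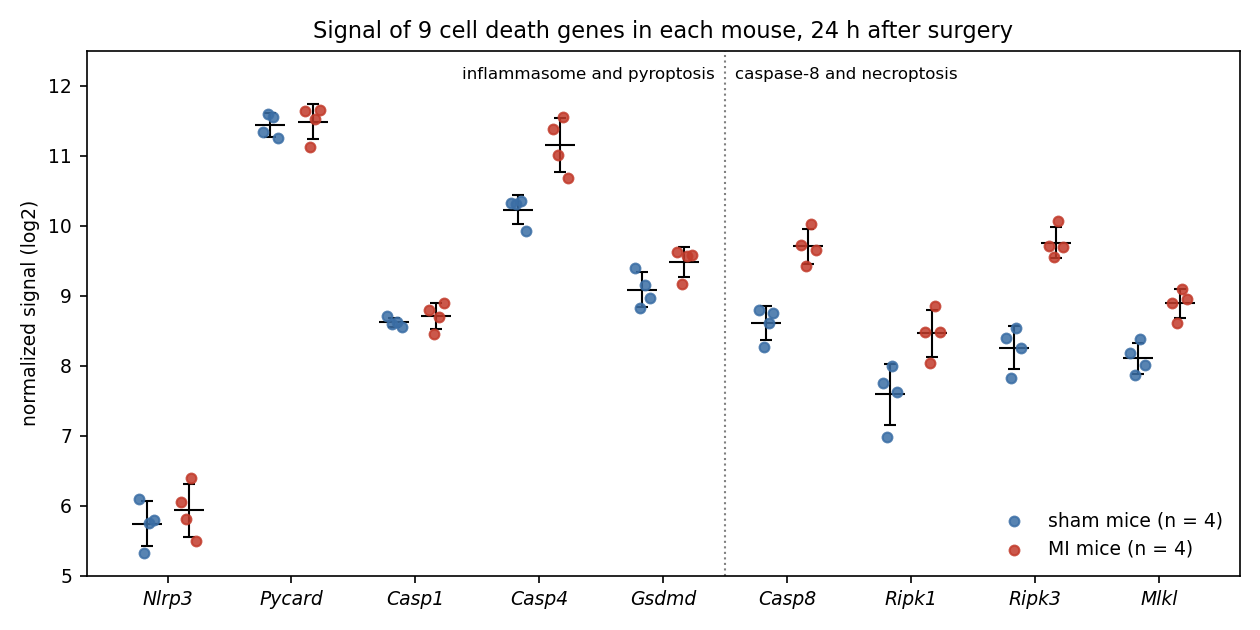
Normalized signal on the log2 scale (vertical axis) of the 9 retained genes in each of 4 sham-operated mice (blue points) and 4 MI mice (red points), with the mean and SD of each group in black. The points of the 2 groups overlap for Nlrp3, Pycard, Casp1 and Gsdmd and are apart for Casp4, Casp8, Ripk1, Ripk3 and Mlkl. Heights of different genes are not comparable, since each probe has its own response.

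On the necroptotic side all 4 genes were higher in every MI mouse than in any sham-operated mouse (exact permutation p = 0.0286 for each, two-sided, the smallest p that 4 against 4 mice allow). Casp8, which cuts Ripk1 and Ripk3 and so restrains necroptosis, was at 447, 309, 392 and 432 in sham-operated mice and 847, 686, 1040 and 805 in MI mice. The lowest MI mouse was thus well clear of the highest sham-operated mouse. Casp8 thus had a log2 fold change of 1.10 ± 0.23 (SE), 2.14-fold with a 95% interval from 1.52 to 3.0 (limma, adjusted p = 0.00831).

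Ripk1, the kinase that joins death receptors to Ripk3, was at 216, 127, 256 and 199 in sham-operated mice and 358, 263, 461 and 357 in MI mice. The groups did not overlap, but MI mouse 2 and sham-operated mouse 3 were nearly equal. The log2 fold change of 0.87 ± 0.27 (SE) did not pass (limma, adjusted p = 0.0707). It passed under 75th percentile scaling, with 0.74 (limma, adjusted p = 0.00776), and in the authors' normalized values, with 0.82 (limma, adjusted p = 0.0353).

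Ripk3, the kinase that commits the cell to necroptosis, changed most. Its normalized signal was 338, 228, 373 and 306 in sham-operated mice and 840, 753, 1076 and 834 in MI mice. The groups were far apart, and the lowest MI mouse had more than the highest sham-operated mouse by a wide margin. The log2 fold change was 1.50 ± 0.24 (SE), 2.83-fold with a 95% interval from 2.0 to 4.01 (limma, adjusted p = 0.000674). It was 1.52 within the first row of the slide and 1.49 within the second. Without any 1 of the 8 mice it lay between 1.36 and 1.60, with adjusted p between 0.00118 and 0.00258 in limma. With the model of vsn fitted to the spike-in spots, which adds a constant to each array, it was 1.06 and that of Casp8 0.80, and both were called by limma.

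Mlkl, the executioner downstream of Ripk3, was at 289, 232, 332 and 258 in sham-operated mice and 476, 389, 549 and 500 in MI mice. The groups did not overlap. The log2 fold change of 0.79 ± 0.23 (SE), 1.72-fold, missed the threshold (limma, adjusted p = 0.0543) and passed under 75th percentile scaling (0.65, limma, adjusted p = 0.00445) and in the authors' normalized values (0.76, limma, adjusted p = 0.023). Under each of these alternatives 5 of the 9 genes were called higher, beside 8.70% of all probes with 75th percentile scaling and 4.95% with the authors' values.

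**Figure D2:**
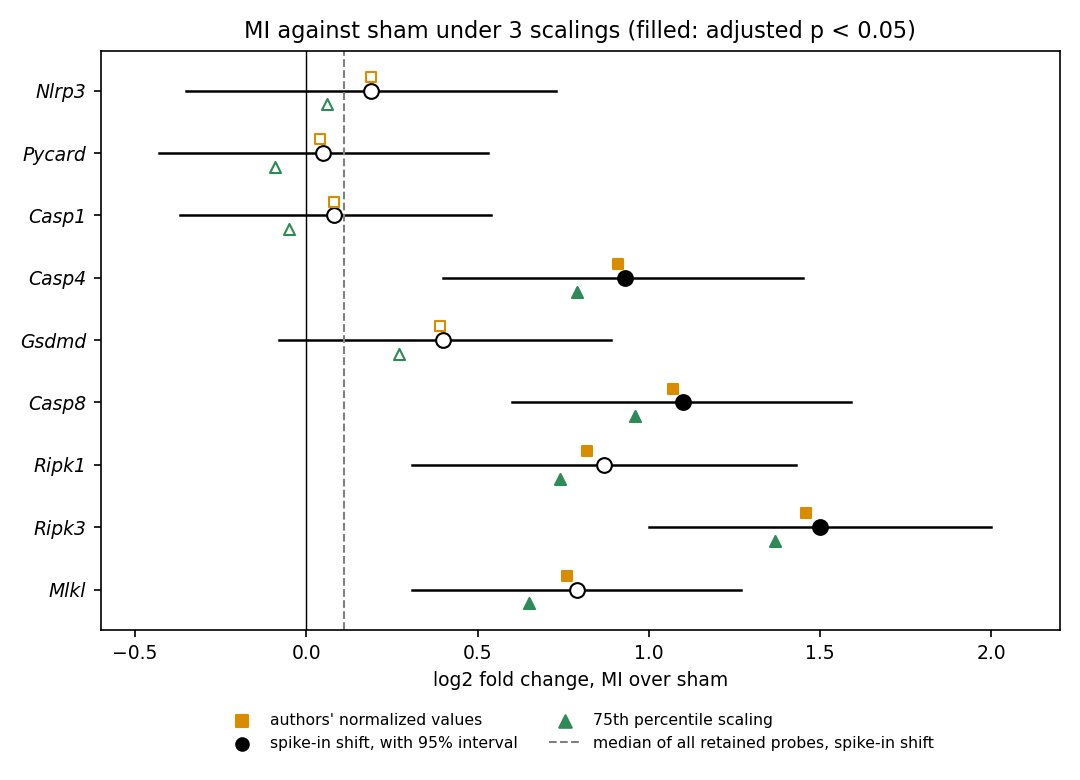
Log2 fold change of MI over sham (horizontal axis) for each gene with the spike-in shift (circles, with 95% intervals), with 75th percentile scaling (triangles) and in the authors' normalized values (squares); filled symbols have an adjusted p under 0.05 in limma. Ripk3, Casp8 and Casp4 are filled under all 3 scalings, Ripk1 and Mlkl under the other two, and the dashed line marks the median of all retained probes, 0.11.

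For the 5 genes whose groups did not overlap, the differences were of like size in both rows of the slide. In the first and the second row the other genes were at 0.29 and 0.52 (Gsdmd), 0.22 and 0.17 (Nlrp3), -0.09 and 0.19 (Pycard), and -0.03 and 0.20 (Casp1). Within the first and the second row the log2 fold change was 1.04 and 1.15 for Casp8, 0.88 and 0.97 for Casp4, 0.89 and 0.85 for Ripk1, and 0.73 and 0.84 for Mlkl. The order of the mice within a group turned with the scaling. With the spike-in shift MI mouse 2 had the lowest signal among MI mice for 7 of the 9 genes and MI mouse 3 the highest for 6, whereas with 75th percentile scaling MI mouse 2 had the highest for 7 and the lowest for 0. The spike-in shift took most off the array of MI mouse 2 (0.33 on the log2 scale). Without that mouse the median over all probes was 0.25, and Ripk1 (1.01, limma, adjusted p = 0.0402) and Mlkl (0.88, limma, adjusted p = 0.0237) were called, so that 5 genes passed.

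The ratio of 2 genes on the same array does not depend on the scaling of that array, so the unequal change of the members was compared in this way, after their values had been seen. Of the 36 pairs of the 9 genes, the log2 ratio did not overlap between MI and sham-operated mice in 21, against 22.9% of all pairs of retained probes. Ripk3 gained on 7 of the 8 other genes with no overlap. The log2 ratio of Ripk3 to Pycard rose by 1.46, that to Casp1 by 1.42 and that to Gsdmd by 1.10 (exact permutation p = 0.0286 for each). Within the necroptosis group Ripk3 gained 0.63 on Ripk1, 0.72 on Mlkl and 0.41 on Casp8, while against Casp4 the gain of 0.58 overlapped (exact permutation p = 0.0571).

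Among the 36 pairs the smallest SDs of the log2 ratio in MI mice were picked out after they had been seen. They were 0.06 for Casp8 to Ripk3 and Gsdmd to Pycard, 0.08 for Casp4 to Nlrp3 and 0.09 for Casp1 to Pycard. In sham-operated mice the SDs of these pairs were 0.19, 0.34, 0.40 and 0.18. How often such small SDs arise over all pairs of probes was not tested. The log2 ratio of Casp8 to Ripk3 was 0.35 ± 0.19 (SD) with sham surgery and -0.06 ± 0.06 (SD) with MI, n = 4 for each. For Mlkl to Ripk3 it was -0.15 ± 0.12 (SD) with sham surgery and -0.87 ± 0.11 (SD) with MI. Over all 33864 other probes with a value on every array, Ripk3 gained with no overlap on 90.1%, Casp8 on 78.4%, Ripk1 on 63.9%, Mlkl on 61.3% and Casp4 on 41.5%. Gsdmd gained on 25.6%, Casp1 on 6.35%, Pycard on 4.54% and Nlrp3 on 2.59%. Casp1, Pycard and Nlrp3 lost with no overlap to more probes than they gained on, 7.4%, 7.3% and 6.53%. The other genes lost to fewer than they gained on (4.08% for Gsdmd). Gains and losses together, 22.9% of all pairs of retained probes did not overlap.

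**Figure D3:**
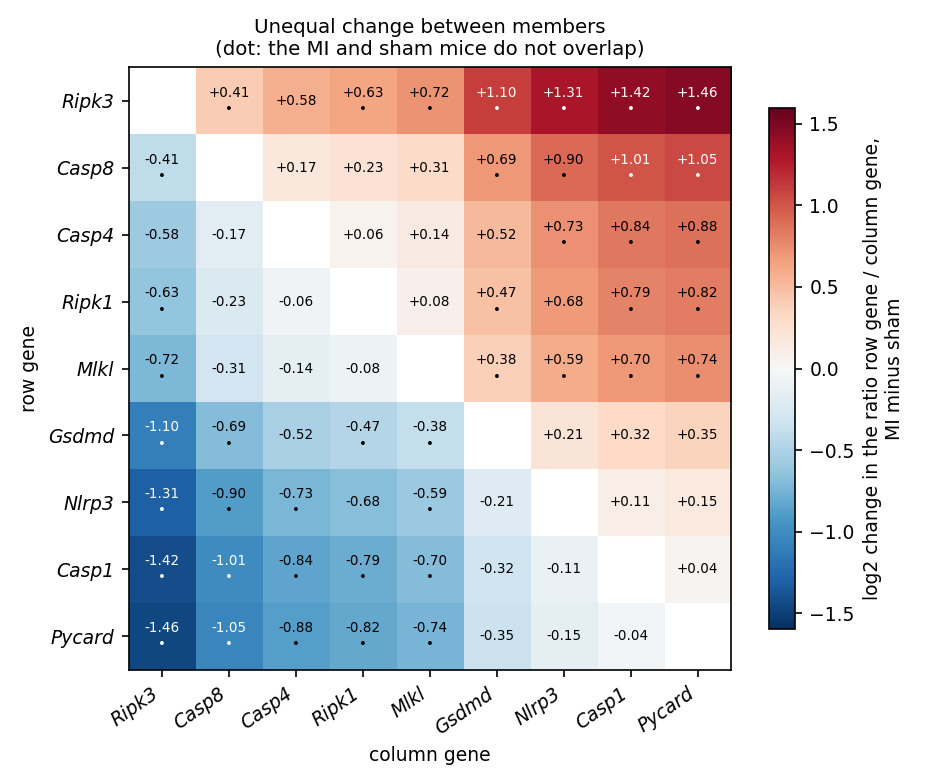
Change of the log2 ratio of the row gene to the column gene on the same array, MI minus sham, for all 36 pairs (colour and number); a dot marks the 21 pairs in which the 4 MI mice and the 4 sham-operated mice do not overlap. The top row, Ripk3, is positive throughout, and the block among Gsdmd, Nlrp3, Casp1 and Pycard holds no dot.

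Of 66 further genes of these pathways, listed with earlier results of these data known, 61 had a retained probe. Of these, 13 were called higher and 0 lower by limma, beside 4.73% and 0.729% of all probes, with 0.34 as their median log2 fold change. Il18rap, included here and in the counts that follow, met the detection filter only through MI mice. By significance analysis of microarrays 18 were higher and 0 lower, and at an unadjusted p under 0.05 in limma 24 and 0. At 75th percentile scaling 19 were called higher and 1 lower, the phosphatase Ppm1b, whose log2 fold change was -0.48 there and -0.35 with the spike-in shift (limma, adjusted p = 0.505). In 20 of the 61 every MI mouse was above every sham-operated mouse, against 7.54% of all probes.

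Among inflammasome sensors and partners, 3 of the 16 retained genes of 20 were called higher and the median was 0.14. Mefv, which encodes pyrin, an inflammasome sensor, was 7.89-fold higher, from 49.9 to 124 in sham-operated mice and from 476 to 814 in MI mice (limma, adjusted p = 6.37e-06). Pstpip1, the partner that binds pyrin, was 3.20-fold higher (limma, adjusted p = 0.0002), and Naip2, a sensor of bacterial secretion systems, 2.25-fold (limma, adjusted p = 0.00455). The Naip genes are closely related copies in the mouse, so their probes may share signal. The brightest gene not called was Naip5 (log2 fold change -0.04). The groups did not overlap for these 3 called genes. With the vsn fit their log2 fold changes of 2.98, 1.68 and 1.17 became 1.57, 0.81 and 0.57, all called by limma. That of Mefv was 2.29 with normexp.

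Of the outputs of the inflammasome, 6 of the 10 retained genes of the interleukin-1 and interleukin-18 list were called higher, with 1.39 as the median log2 fold change. Il1b, the cytokine that caspase-1 matures, was 9.96-fold higher and ranged from 141 to 404 in sham-operated mice and from 648 to 3895 in MI mice (limma, adjusted p = 0.000166). The methods' t-test did not call it after Benjamini-Hochberg adjustment. Its decoy receptor Il1r2 was 9.97-fold higher (limma, adjusted p = 5.9e-07) and the receptor antagonist Il1rn 9.44-fold (limma, adjusted p = 1.74e-05), the latter well above background in 1 of 4 sham-operated mice. That fold therefore rests on dim sham values. The log2 fold change of Il1rn, 3.24, became 0.50 with the vsn fit and was called by limma there. It became 2.18 with dim spots left out, which leaves 1 sham-operated mouse. In the authors' values, made from spots well above background, it was 2.09. With normexp that of Il1rn was 1.02. With the vsn fit Il1b was at 2.43 and Il1r2 at 2.73 in place of 3.32 for both, and they were called by limma. Il18rap, a chain of the interleukin-18 receptor, was not well above background in any sham-operated mouse and so met the detection filter only through MI mice. It counts among the 6 called genes, and that call is not read as support. Its log2 fold change of 4.76 became 1.24 with normexp and 0.62 with the vsn fit. With the spike-in shift, and on that scale only, it was at least 15.3-fold higher in MI mice. That bound sets the MI mean against the higher of the probe's own signal and the lowest signal well above background on each sham array. Il18bp, which neutralises interleukin-18, was at 0.64 and not called, and Il1a was well above background on no array.

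Among gasdermins and genes of membrane rupture and repair, 1 of 9 was called: Gsdme, another pore-forming gasdermin, at 1.84-fold (limma, adjusted p = 0.0341). This call was lost with the vsn fit (log2 fold change 0.26), with normexp background correction (0.39), with no detection filter and with the methods' t-test, and without each mouse in turn except MI mouse 2 (limma, adjusted p up to 0.177, without sham-operated mouse 4). Ninj1, which ruptures the membrane of dying cells, was the brightest gene not called, at 0.38. Among 26 regulators of necroptosis and death receptors, 3 were called higher and the median was 0.21. Tnf, the ligand that engages Ripk1, was 4.11-fold higher, at most 42.4 in sham-operated mice and from 69.5 to 170 in MI mice (limma, adjusted p = 0.00115). Its log2 fold change of 2.04 became 0.82 with normexp and 0.45 with the vsn fit, where the call was lost (limma, adjusted p = 0.0685), as it was with the methods' t-test. Tnfaip3 (A20), an inhibitor of nuclear factor kappa B signalling, was 2.48-fold higher (limma, adjusted p = 0.00658), and Zbp1, a nucleic acid sensor that engages Ripk3, 2.41-fold (limma, adjusted p = 0.00139). The Tnfaip3 call was lost with the methods' t-test.

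**Figure D4:**
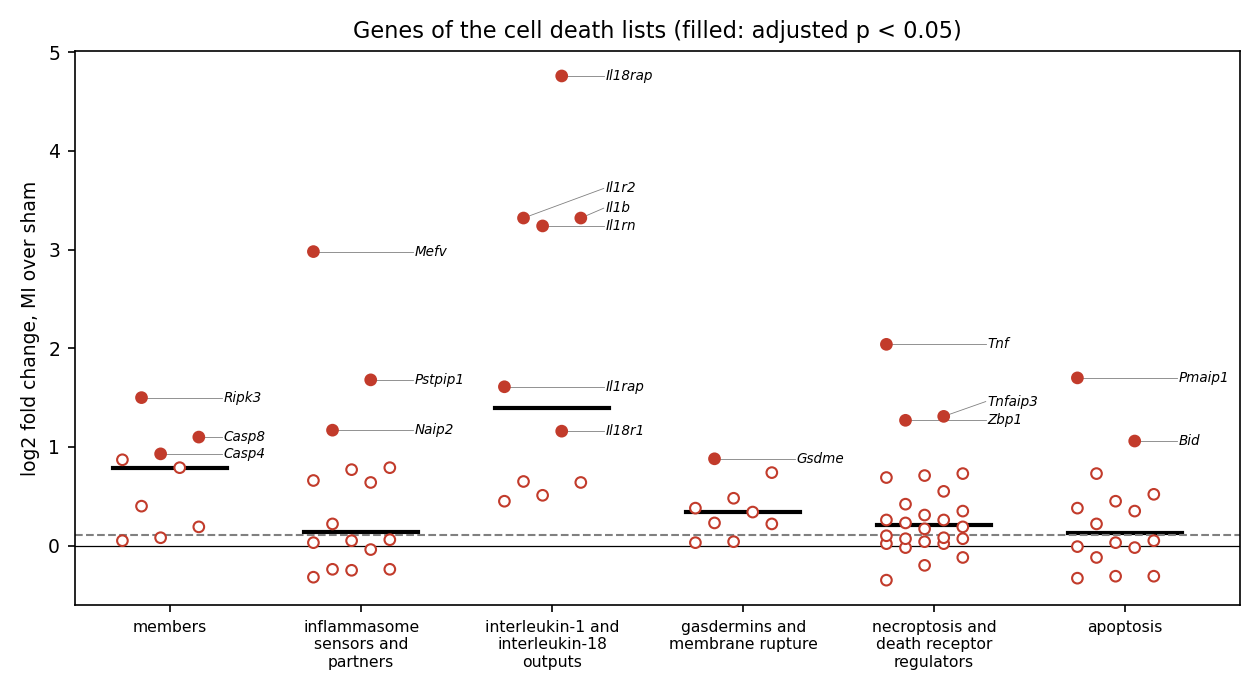
Log2 fold change of MI over sham (vertical axis) for the 9 members, the genes of the 4 related lists and an apoptosis list; filled points have an adjusted p under 0.05 in limma and carry their symbol, bars are list medians and the dashed line is the median of all retained probes. The median of the interleukin list, 1.39, lies above that of the other lists, and no filled point lies below 0. Il18rap is drawn at its fitted value, which is no bound.

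Leukocyte genes moved with these results. Ptprc (CD45), carried by all leukocytes, ranged from 96.5 to 136 in sham-operated mice and from 204 to 324 in MI mice, a log2 fold change of 1.17 (limma, adjusted p = 0.00549). Of 8 neutrophil markers 7 were retained and 6 were called higher, with a median log2 fold change of 3.03, and their summed signal was 61917 to 78492 in sham-operated mice and 204464 to 314331 in MI mice. None of the 7 was at 0, and Csf3r was the one not called (0.09). Of 10 markers of monocytes and macrophages 8 were retained and 3 were called higher (Ccr2, Cd14 and Chil3), with a median of 0.46 and a summed signal of 13926 to 22009 in sham-operated mice and 27933 to 33412 in MI mice. In that sum Chil3 alone ranged from 977 to 2924 in sham-operated mice and from 9112 to 12508 in MI mice. The markers not called were Adgre1 at -0.24, Csf1r at -0.16, Lyz2 at 0.16, Mrc1 at 0.20 and Fcgr1 at 0.72. In the same 4 mice all values of Ripk3, Casp8, Casp4, Ripk1 and Mlkl were above those of sham-operated mice, and the part of leukocyte number in their values was not tested.

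Most markers of other cells were not called. Of 4 retained T cell markers 1 was called higher (Cd3d), and of 4 fibroblast, 4 endothelial and 2 smooth muscle markers 0 were called in either direction by limma or by significance analysis of microarrays with the spike-in shift (1 endothelial marker was higher at an unadjusted p under 0.05). With 75th percentile scaling 1 endothelial marker, Pecam1, was called higher (limma, adjusted p = 0.0389), and 2 T cell markers were. The summed signal of the 7 cardiomyocyte markers was 1833652 to 2531512 in sham-operated mice and 1702711 to 2513499 in MI mice, so that the groups overlapped.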

How the data were processed

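The deposited intensities were, per the file headers, processed by Feature Extraction 11.0.1.1, with the local background subtracted, spatial trends removed and a surrogate given to spots not above background, and with no scaling between arrays. The deposited median intensities of spots and local background served for normexp. The authors' log2 values were made from spots well above background, set to a common scale through the spike-in probes in limma and vsn.

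Here outlier-flagged spots were left out, log2 signals of a probe were averaged and each array was shifted by 7 spike-in probes. Probes that are not controls were retained where they were well above background on 4 or more of 8 arrays (34038). No additive constant was used, since those of a vsn-type fit on 234 spike-in spots hold back the folds of dim probes. MI was compared with sham in limma 3.58.1 (R 4.3.3) without covariates, with Benjamini-Hochberg adjustment over all retained probes. Single values had an exact two-sided permutation test (70 label orders). Python 3.11.15 with numpy 2.4.6, pandas 2.3.3, scipy 1.17.1 and matplotlib 3.10.9 did the rest. The scripts were tested on simulated data.

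Symbols came through RefSeq accessions (GRCm38.p6 table), which paired 26582 of 55681 probes. The text names the 10 members, and from each other list the 4 called genes with the largest absolute fold change and the brightest gene not called. Il1a, Ppm1b at the other scaling, the single markers and the promoters shown were named after their values were seen. The members and lists were chosen with earlier results of these data known. The ratios of pairs were added after the values had been seen. The alternatives were other scalings and background corrections, other detection filters, significance analysis of microarrays, and a pooled t-test with Benjamini-Hochberg adjustment. Others were a block for the replicate number or the array row, the mean over a gene's probes, and each mouse left out. Over the probes, deviations of samples with the same number in both groups had correlations of -0.0732 to 0.196, which leave out array-wide shifts. The labels name no pairs, and the numbers were not used as pairs in the main fit.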

Additional observations from a re-analysis of the deposited data

Results flagged for a closer look

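In 2 of 18 groups of 4 mice, 1 mouse stood apart from the other 3 on the log2 scale by a gap that is most of the group's range, where chance gives this in about 1 of 20 groups. Casp4 was at 9.92 in sham-operated mouse 4, below 10.31 to 10.36 in the other sham-operated mice. Gsdmd was at 9.17 in MI mouse 2, below 9.57 to 9.63 in the other MI mice; with 75th percentile scaling that mouse had the highest Gsdmd of the MI mice, 9.51. Without sham-operated mouse 4 the log2 fold change of Casp4 was 0.82 and its call was lost (limma, adjusted p = 0.143). Without MI mouse 2 that of Gsdmd was 0.51 and still not called (limma, adjusted p = 0.15).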

How the results depend on the processing

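Ripk3 and Casp8 were called higher in all 13 other settings and without each of the 8 mice. Casp4 was called in 10 of the 13, and lost with no detection filter, with the pooled t-test and with the array row as a block (limma, adjusted p = 0.0505). Mlkl was called in 8 and Ripk1 in 7, and Nlrp3, Pycard, Casp1 and Gsdmd in none. Among these settings, the normexp fit gave every retained member the same SE, 0.21. The SE of Il1b was also 0.21 there, against 0.45 with the spike-in shift. Calls with normexp, those of Ripk1 and Mlkl among them, thus do not reflect each gene's own spread between mice. Among the 189 values of the members under alternatives, 155 kept direction and side of the threshold. The sign turned for Pycard (-0.09 at the 75th percentile, -0.03 with quantile normalization, and -0.02 to 0.17 with 1 mouse left out, below 0 without sham-operated mouse 4, MI mouse 1 or MI mouse 4), Casp1 (-0.05 and -0.04), Nlrp3 (-0.02 with normexp) and Naip5 (-0.13 to 0.06 with 1 mouse left out, above 0 without sham-operated mouse 3, MI mouse 2 or MI mouse 4), none of them called by limma. The cause of these shifts was not tested.

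Members higher numbered 5 instead of 3 with 75th percentile scaling, quantile normalization, normexp, the authors' values, detection on all 8 arrays and significance analysis of microarrays, and members over 2-fold 1 instead of 2 with 75th percentile scaling, quantile normalization, normexp and the vsn fit. Among related genes 1 was lower instead of 0 with 75th percentile scaling and quantile normalization, and 8 instead of 13 were higher with the pooled t-test. Probes higher, 1609, became 2963 at the 75th percentile, 3116 with quantile normalization, 955 without the filter, 2552 with significance analysis of microarrays and 733 with the t-test, and probes lower, 248, became 3010, 3116, 52, 592 and 9, and 121 with vsn and 500 with normexp. Over 2-fold, 1315 higher became 320 with vsn, 544 with normexp and 628 with the t-test, and 203 lower became 401 at the 75th percentile, 13 with vsn, 448 with quantile normalization, 128 with the authors' values, 64 with normexp, 52 without the filter and 7 with the t-test. Of the 36 pairs, 20 to 23 did not overlap in the authors', normexp and vsn values, chosen after seeing the data.

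With the replicate number as a block, 3564 probes, 5 members and 23 related genes were higher and 743 probes lower. The SE of Ripk3 was 0.12 there, against 0.24 without the block. Over the probes, 1 of 8 mice correlated best with its own number. Such a correlation leaves out a shift common to all probes of an array, so it cannot tell whether same-numbered mice share one. Mice of the same number lay in the same row of the slide. Leaving out 1 mouse gave 1131 to 2106 probes higher and 108 to 366 lower, 1030 to 1689 and 68 to 351 over 2-fold, 2 to 5 members higher, 1 to 3 over 2-fold and 12 to 16 related genes higher. Aim2 and dim Nlrp3 are limited by signal over background.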

Other observations

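Of the 17 genes of an apoptosis list, 16 were retained, 2 were called higher and 0 lower by limma (4 and 0 at an unadjusted p under 0.05, 3 and 0 by significance analysis of microarrays), with 0.13 as the median log2 fold change beside 0.11 over all retained probes. The share called over all probes was 4.73% higher and 0.729% lower. Pmaip1 (Noxa), a BH3-only protein, was 3.26-fold higher, from 41.7 to 59.4 in sham-operated mice and from 114 to 192 in MI mice (limma, adjusted p = 0.000283). Bid, which caspase-8 cuts to pass its signal to mitochondria, was 2.08-fold higher, from 82.1 to 117 and from 166 to 280 (limma, adjusted p = 0.0131). For both, all MI mice were above all sham-operated mice. With the vsn fit the log2 fold change of Pmaip1 was 0.53 in place of 1.70 (0.91 with normexp) and that of Bid 0.45 in place of 1.06, both called by limma. The Bid call was lost with no detection filter (limma, adjusted p = 0.0564), with the pooled t-test and without MI mouse 3 (limma, adjusted p = 0.0509). Cycs, cytochrome c, was the brightest gene not called, at -0.12. With 75th percentile scaling 3 were called higher, beside 8.70% of all probes, and 1 lower.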
